A study of Mus musculus with 20 samples.

Results

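The comparison described here was made among 10 of the 20 RNA-sequencing libraries of the series, those of interferon gamma (IFNγ) treated BV-2 cells, by setting the 4 libraries of batches 2 and 3 against the 6 of batch 1. BV-2 is an immortalized mouse microglial line. All 10 cultures had received IFNγ at 10 ng/mL for 48 h, and they came from the wild-type line or from a derivative labelled as an RGS10 knockout. Each line contributed replicates 1 to 3 from batch 1, replicate 4 from batch 2 and replicate 5 from batch 3, which the labels call biological replicates. The 10 vehicle libraries, from cultures given medium only, had the same numbers and batches and served as the reference. The labels give each library a batch number without saying whether it marks a thaw, a culture, an extraction or a sequencing run, and how the knockout line was made, or from how many clones, is not given in the sources used here. With 1 library per line in each of batches 2 and 3, p-values measure the spread among these libraries. The tests treat the 10 libraries as independent, although both lines share each batch. They therefore do not say how far further batches would differ.

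IFNγ binds a surface receptor whose Janus kinases set off the induction of a first wave of genes, the transcription factor IRF1 among them. IRF1 and its relatives drive a second wave that includes guanylate-binding proteins, antigen presentation genes and chemokines. In macrophages and microglia the cytokine also arms the production of nitric oxide and inflammatory mediators, and it slows the cell cycle. RGS10, the protein targeted in the knockout line, speeds GTP hydrolysis by G protein alpha subunits and is known to restrain inflammatory signalling in microglia.

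The target of the knockout, Rgs10 (ENSMUSG00000030844), was detected in all 20 libraries. Wild-type vehicle libraries held 55.3, 60.2 and 64.6 CPM in batch 1, 72.6 in batch 2 and 62.6 in batch 3, and knockout ones 30.7, 25.9 and 28.4, 34.7 and 22.8 CPM in the same order. CPM values are counts scaled to library totals corrected by the trimmed mean of M-values (TMM). Every knockout vehicle library lay below every wild-type one, but transcript remained, and counts per gene do not show whether it was intact. Under IFNγ the wild-type libraries of batch 1 held 23.2, 22.2 and 23.6 CPM, that of batch 2 48.6 and that of batch 3 28.5. The knockout libraries held 21.3, 18 and 17.2 CPM in batch 1, 48.3 in batch 2 and 15.4 in batch 3. The libraries of batch 2 were thus the highest of both lines, at nearly equal levels, while the knockout library of batch 3 lay below its batch 1 counterparts. The fitted difference of 0.75 ± 0.26 log2 (± SE; edgeR adjusted p = 0.038) was lost when any 1 of the 8 libraries of batches 1 and 2 was left out (edgeR adjusted p up to 0.22, 0.38 log2 without the knockout library of batch 2). The exact permutation test within lines gave p = 0.06 (two-sided, 100 arrangements, adjusted p = 0.08 over 12 library measures).

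The IFNγ libraries held 19570654 to 29157740 counts. Batch 1 replicates of a line lay close together, and libraries of batches 2 and 3 lay far from them and from each other, with components 1 and 2 holding 47.1% and 29.7% of the variance of log2 CPM. The 10 most abundant genes took 7.60% to 7.86% of reads in wild-type and 4.81% to 4.92% in knockout cells of batch 1, against 17.1% and 14.7% in wild-type and 9.72% and 9.46% in knockout cells of batches 2 and 3 (exact permutation within lines, adjusted p = 0.02). The TMM factors were 1.04 to 1.06 in batch 1 and 0.653 to 0.930 in batches 2 and 3. At 15866749 reads per library, the wild-type libraries detected 18915, 19145 and 19025 genes in batch 1, 16657 in batch 2 and 16480 in batch 3. Knockout libraries detected 17825, 17421 and 17505 genes in batch 1, 16589 in batch 2 and 17923 in batch 3. The knockout library of batch 2 was therefore low in complexity, and both wild-type libraries of batches 2 and 3 were as low. Of 9 lists of markers of other cell types, 8 had most members under 1 CPM in every IFNγ library, from 6 of 10 neuron markers to 9 of 9 fibroblast and 7 of 7 epithelial ones. Of endothelial markers only 4 of 9 were, and that list summed to 397 to 465.97 CPM in batch 1 and 371 to 961 CPM in batches 2 and 3, where Flt1, its highest member, had a mean of 603 CPM. Astrocyte markers summed to 32.2 to 60.1 CPM in batch 1 and 37.6 to 104 CPM in batches 2 and 3 (Aldoc the highest, mean 76.3 CPM), and dendritic cell markers to 31.3 to 42.0 and 55.4 to 122 CPM (Clec9a the highest, mean 50.9 CPM). Their part in the results was not tested. Macrophage and microglial identity genes summed to 10593 to 15872 CPM in batch 1 and 13634 to 31629 CPM in batches 2 and 3.

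**Figure D1:**
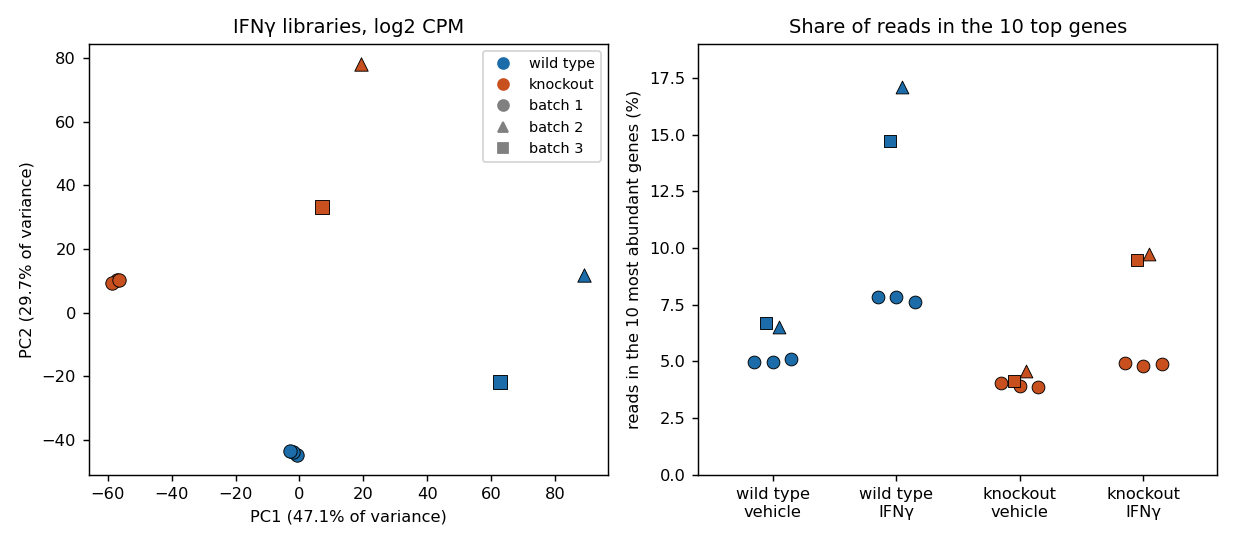
Left, principal components 1 and 2 of log2 CPM over the 10 IFNγ libraries (each point a library; colour gives the line, shape the batch). Right, percentage of reads in the 10 most abundant genes in all 20 libraries; IFNγ libraries of batches 2 and 3 reached 9.46% to 17.1%, above all others.

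Genes that IFNγ induces were mostly higher in batches 2 and 3 where they depended on batch, and genes that it represses were mostly lower. Of 14593 genes tested in the IFNγ libraries with line as a covariate, 2992 (20.5%) were higher and 2922 (20%) lower in batches 2 and 3 than in batch 1, together 40.5% (edgeR quasi-likelihood test, Benjamini-Hochberg adjusted p under 0.05). Genes were then classed by their IFNγ response over all batches and both lines, which called 2470 of 15296 genes induced (16.1%) and 1581 repressed (10.3%) at an adjusted p under 0.05 and 1 log2 or more. Of 2461 induced genes tested, 1149 (46.7%) were higher in batches 2 and 3 and 41 (1.67%) lower, with a median of 0.91 log2 against −0.01 log2 over all genes. Of 1337 repressed genes tested, 813 (60.8%) were lower and 34 (2.54%) higher, with a median of −1.10 log2. The classes were drawn from the same IFNγ libraries, so these counts describe how the difference was spread and are not independent of it. Without the knockout library of batch 2 the counts were 1072 higher of 2462 induced and 824 lower of 1394 repressed genes. In bulk RNA a change in the share of cells in a state and a change in transcript per cell cannot be told apart.

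The vehicle libraries of the same batches differed less along these classes. Between batch sets 3798 of 15296 genes (24.8%) differed under vehicle, 1829 higher (12%) and 1969 lower (12.9%) in batches 2 and 3, and induced genes had a median of 0.23 log2 and repressed genes of −0.14 log2. The vehicle count was 2263 without the wild-type vehicle library of batch 2 and 1967 without that of batch 3. A test of the difference between the batch sets' IFNγ responses called 3413 of 15296 genes (22.3%), 1532 with a response shifted upward in batches 2 and 3 (10.0%) and 1881 shifted downward (12.3%). Among induced genes 535 were shifted upward and 31 downward, and among repressed genes 9 upward and 758 downward. On plain library totals these counts were 328 and 129, and 4 and 1081. A gene that passed 1 log2 through its response in batches 2 and 3 entered its class for that reason, so these counts too are only a description. Library scaling set where 0 lay: on plain library totals the median over all genes moved from −0.01 to −0.39 log2 in the IFNγ batch difference and from −0.06 to −0.53 log2 in the response difference. The share of calls that were higher moved from 50.6% to 22.6% and from 44.9% to 9.55% respectively, that of vehicle calls from 48.2% to 63.1%, and that of calls in the response over all batches from 50.2% to 39.4%. On plain totals 1496 of 14593 genes were higher and 5115 lower in the IFNγ batch difference, which is the background for plain-total counts below. Directions below are relative to the TMM scale.

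In 2227 genes (15.3%) both libraries of batches 2 and 3 lay above all of batch 1 in each line, and in 2943 (20.2%) below. Among the largest such rises was Crybg2, a crystallin-domain gene, which stood at 3.44, 2.03 and 2.36 CPM in wild-type cells of batch 1 and at 444 and 102 CPM in batches 2 and 3. In knockout cells it stood at 0.942, 1.14 and 1.51 CPM in batch 1 and at 71.6 and 77.9 CPM. This was a rise of 6.38 ± 0.39 log2 (edgeR adjusted p = 4.4e-06) on a vehicle level that did not pass the test (1.08 ± 0.48 log2). Lrrc32, a surface protein that holds latent TGF-beta, was at or below 0.732 CPM in every batch 1 library and reached 34.7 and 32.1 CPM in the knockout libraries and 4.54 and 2.39 CPM in the wild-type libraries of batches 2 and 3. The chemokine Ccl22 rose from 5.01 to 14 CPM in batch 1 to 638 and 25.7 CPM in wild-type and 171 and 309 CPM in knockout cells (5.16 ± 0.67 log2, edgeR adjusted p = 0.00016).

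At the other end, Gpr84, a receptor for medium-chain fatty acids, stood at 2.84, 1.54 and 1.97 CPM in wild-type and 9.56, 10.5 and 8.89 CPM in knockout cells of batch 1. Its levels in batches 2 and 3 were 0.151 and 0.184 CPM in wild-type and 0.0543 and 0.288 CPM in knockout cells, a fall of −4.90 ± 0.53 log2 (edgeR adjusted p = 5.1e-05). It was lower in these batches under vehicle too (−2.11 ± 0.27 log2, edgeR adjusted p = 2.6e-05). Il1rl1, the receptor for interleukin 33, was listed at 0 in both wild-type libraries of batches 2 and 3 and at 0.217 and 0.0576 CPM in the knockout libraries, against 1.57, 1.73 and 1.31 and 4.01, 4.49 and 5.09 CPM in batch 1. A few genes went against their class. The serpin Serpinb1a, repressed by IFNγ overall (−2.05 ± 0.34 log2), was 2.39 ± 0.35 log2 higher in batches 2 and 3, and the mTOR inhibitor Ddit4, also repressed (−1.06 ± 0.23 log2), was 2.49 ± 0.35 log2 higher (edgeR adjusted p = 0.00035 and 0.00023). Ddit4 was higher there under vehicle too (1.74 ± 0.34 log2, edgeR adjusted p = 0.00098), and its response difference did not pass (0.76 ± 0.48 log2, edgeR adjusted p = 0.27).

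Interferon pathway lists did not all move alike, and their counts depended on library scaling. Among receptor, kinase, STAT and IRF genes 8 of 21 were higher and none lower (median 0.35 log2). On plain totals 6 were higher and 5 lower (median −0.04 log2). Irf1 stood at 771, 753 and 777 CPM in wild-type cells of batch 1, 1489 in batch 2 and 2050 in batch 3. In knockout cells it stood at 616, 567 and 579, 1286 and 1380 CPM in the same order. Both lines were thus higher in batches 2 and 3 without overlap (1.19 ± 0.14 log2, 2.29-fold, edgeR adjusted p = 6.6e-05), although vehicle levels were lower there (−0.49 ± 0.11 log2, edgeR adjusted p = 0.0035). The response of Irf1 to IFNγ was larger by 1.68 ± 0.16 log2 (edgeR adjusted p = 6.2e-07). Irf8, a myeloid transcription factor, went from 534 to 549.6 CPM in wild-type and 861 to 898 CPM in knockout cells of batch 1 to 3582, 1940, 2302 and 3128 CPM, a rise of 1.99 ± 0.21 log2 (edgeR adjusted p = 4.4e-05).

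Interferon-inducible GTPases, the GBP and IRG proteins that attack intracellular pathogens, were often lower at baseline in batches 2 and 3, and many had a larger response there. Under vehicle 13 of 21 were lower in batches 2 and 3 and 1 higher (median −1.01 log2). Under IFNγ 8 were higher and 1 lower (median 0.33 log2, and −0.07 on plain totals), and the response was larger for 11 and smaller for none. Gbp2 (ENSMUSG00000028270) was read at 10.6, 10.2 and 13.8 CPM in wild-type vehicle libraries of batch 1 and at 2.98 and 2.24 CPM in batches 2 and 3, and at 11, 9.49 and 10.9, 4.18 and 4.03 CPM in knockout ones. With IFNγ it stood at 4174, 4085 and 3894 CPM in wild-type cells of batch 1, 15537 in batch 2 and 8929 in batch 3, and at 2724, 2722 and 2817, 3329 and 6066 CPM in knockout cells. The order of the batch sets was thus opposite under vehicle and IFNγ in each line, with −1.71 ± 0.23 log2 under vehicle (edgeR adjusted p = 4.6e-05), 1.19 ± 0.24 log2 under IFNγ (edgeR adjusted p = 0.002) and a response larger by 2.90 ± 0.30 log2 (edgeR adjusted p = 2.5e-06). Gbp3 was the member that fell under IFNγ (−0.58 ± 0.19 log2, edgeR adjusted p = 0.03), a call lost when any of 5 libraries was left out, namely the knockout libraries of batches 1 and 2 and the wild-type library of batch 2 (edgeR adjusted p 0.0035 to 0.069 over all 10).

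**Figure D2:**
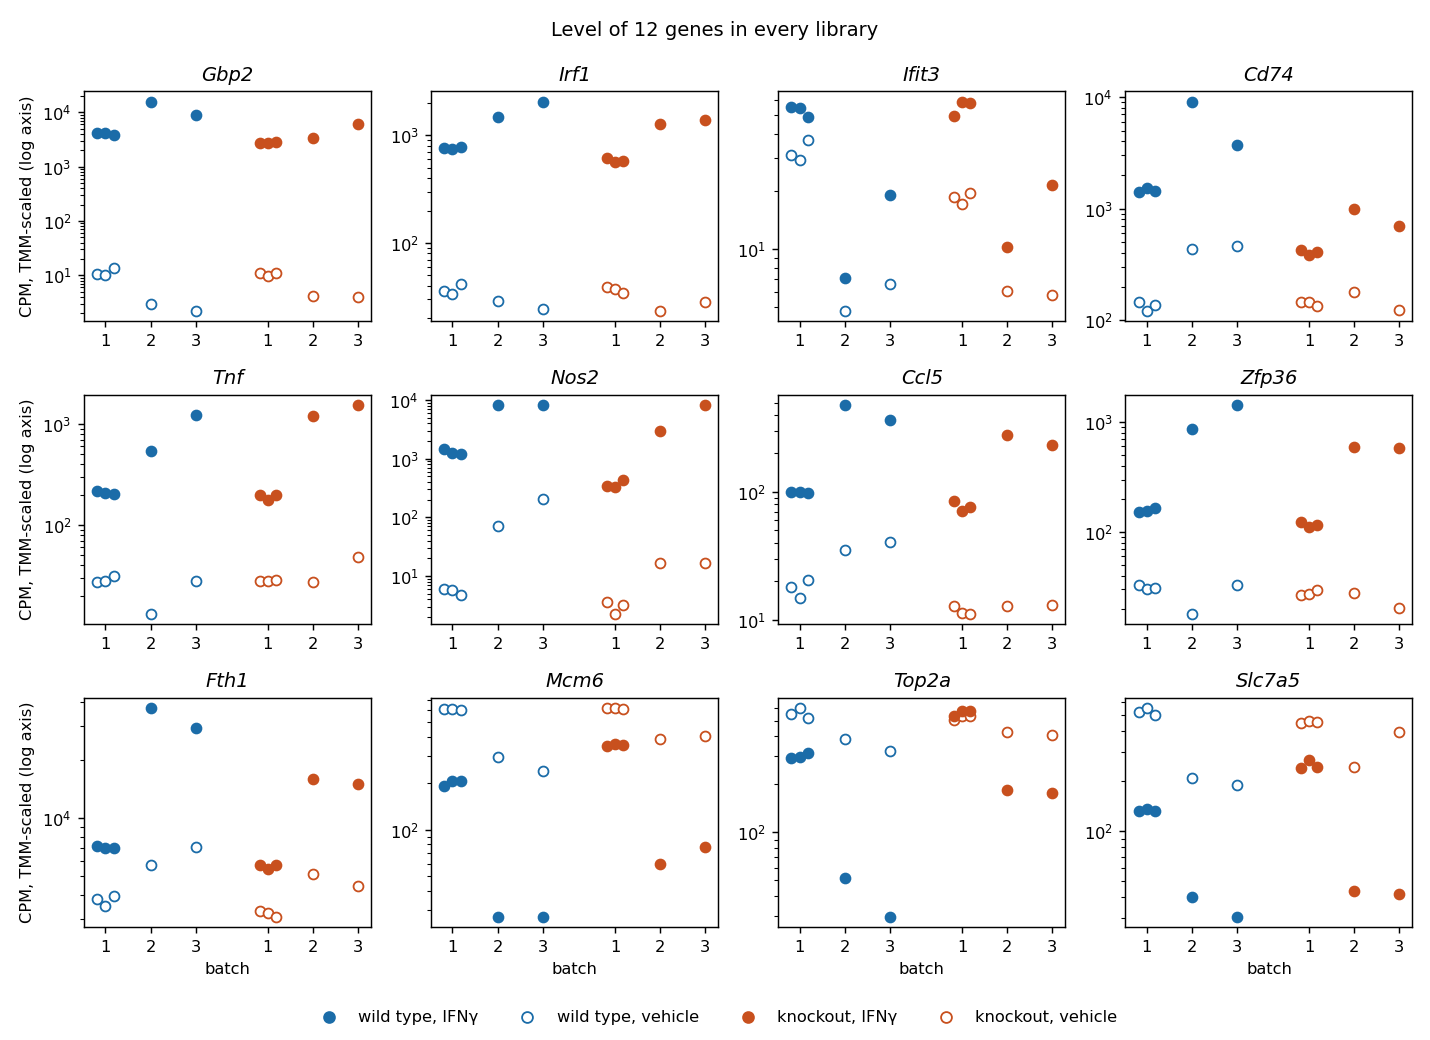
CPM on TMM-scaled totals (log axis) of 12 genes in all 20 libraries; each point is a library, filled for IFNγ and open for vehicle, blue for wild type and orange for knockout, with the batch on the x axis. Gbp2 and Irf1 were lower under vehicle and higher under IFNγ in batches 2 and 3, Ifit3 was lower under both, and Mcm6, Top2a and Slc7a5 fell furthest in the IFNγ libraries of batches 2 and 3.

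Antiviral genes, which answer chiefly to type I interferon, were mostly lower at baseline and, on the TMM scale, mixed under IFNγ. Under vehicle 24 of 31 were lower in batches 2 and 3 and none higher (median −0.83 log2). Under IFNγ 7 were higher and 9 lower (median −0.29 log2), beside 20.5% and 20% of all genes. On plain totals 3 were higher and 19 lower (median −0.66 log2). Ifit3 (ENSMUSG00000074896), an adaptor in antiviral RNA sensing, stood under IFNγ at 54.9, 54.1 and 48.5 CPM in wild-type cells of batch 1 and at 7.12 and 19.2 in batches 2 and 3. In knockout cells it stood at 49.4, 58.4 and 57.3, 10.3 and 21.6 CPM. All 4 libraries of batches 2 and 3 lay below batch 1 (−1.89 ± 0.27 log2, edgeR adjusted p = 0.00031), as they did under vehicle (−2.05 ± 0.24 log2, edgeR adjusted p = 1.3e-05), and the responses differed by 0.17 ± 0.32 log2 (edgeR adjusted p = 0.75). Oas2, an activator of antiviral RNA decay, fell by 0.81 log2 (edgeR adjusted p = 0.0015). The death ligand Tnfsf10, the 1 lower gene among the inflammatory mediators below, fell by 1.15 log2 (edgeR adjusted p = 0.0043). Samhd1, which depletes the nucleotides viruses need, went the other way, from 780.0 to 791 CPM in wild-type and 1037 to 1059 CPM in knockout cells of batch 1 to 4362, 1681, 2891 and 1976 CPM (1.59 ± 0.25 log2, edgeR adjusted p = 0.00052).

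The upstream sequences of 4 interferon-responsive genes are printed because these genes differ in how their level moved between batches: Gbp2 and Cxcl9 rose, Ifit3 and Cxcl10 fell. Each run is the 250 bases before the RefSeq start site on the gene's own strand (build GRCm38.p6, which is not the build named for the counts), and capitals mark matches to GAAANNGAAA, a core of the interferon-stimulated response element, or to TTCNNNGAA, the STAT dimer motif, on either strand.
Gbp2, chr3:142620413-142620662 (plus strand): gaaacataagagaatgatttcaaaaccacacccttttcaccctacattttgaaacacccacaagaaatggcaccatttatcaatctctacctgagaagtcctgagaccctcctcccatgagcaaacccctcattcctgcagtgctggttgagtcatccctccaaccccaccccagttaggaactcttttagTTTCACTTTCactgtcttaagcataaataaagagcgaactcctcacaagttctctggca
Ifit3, chr19:34583279-34583528 (plus strand): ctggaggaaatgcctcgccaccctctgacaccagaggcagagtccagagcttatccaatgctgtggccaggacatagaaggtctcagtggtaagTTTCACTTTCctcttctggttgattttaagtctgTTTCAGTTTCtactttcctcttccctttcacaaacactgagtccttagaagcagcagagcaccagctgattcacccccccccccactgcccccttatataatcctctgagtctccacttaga
Cxcl10, chr5:92348890-92349139 (minus strand): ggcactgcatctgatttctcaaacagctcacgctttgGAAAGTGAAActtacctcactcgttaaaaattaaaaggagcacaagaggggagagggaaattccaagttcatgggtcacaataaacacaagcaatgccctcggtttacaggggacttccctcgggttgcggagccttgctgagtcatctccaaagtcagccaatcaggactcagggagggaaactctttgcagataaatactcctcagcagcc
Cxcl9, chr5:92328080-92328329 (minus strand): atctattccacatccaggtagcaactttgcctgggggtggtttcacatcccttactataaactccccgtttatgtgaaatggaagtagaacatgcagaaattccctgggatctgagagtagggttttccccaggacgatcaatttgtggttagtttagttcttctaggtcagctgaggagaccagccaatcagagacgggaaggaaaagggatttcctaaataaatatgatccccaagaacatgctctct
Gbp2 held 1 match to GAAANNGAAA, ending 50 bases before the start, Cxcl10 held 1 at 204 bases and Ifit3 held 2, the nearer at 113 bases. Cxcl9 held no match to either motif in this window, and none of the 4 held TTCNNNGAA. Of 32851 mouse promoter windows of this length in the RefSeq table, 2.98% held GAAANNGAAA and 7.02% held TTCNNNGAA. A match to GAAANNGAAA was thus present in genes that moved in opposite directions between batches. Other genes were searched in the same way and their sequences are not printed. Samhd1, Irf8, Tnf and Cd274, which rose, held no match to GAAANNGAAA. Samhd1 held 1 match to TTCNNNGAA, and Irf8 held 2 before 1 of its start sites and 0 before the other. Tnf and Cd274 held neither motif. Rsad2, whose level is not reported here, held 1 match to GAAANNGAAA.

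Called chemokine ligands were higher with 1 exception, Cxcl10, whose call depended on single libraries. Of 18 ligands tested 8 were higher in batches 2 and 3 and 1 lower (median 0.85 log2), whereas under vehicle 4 were higher and 8 lower (median −0.70 log2). Cxcl9 (ENSMUSG00000029417), a T cell attractant typical of IFNγ, stood at 33.8, 34.6 and 37 CPM in wild-type cells of batch 1 and at 784 and 153 in batches 2 and 3. In knockout cells it stood at 30.7, 25.6 and 27.4, 78.3 and 88.1 CPM, and vehicle libraries held at most 0.414 CPM. The wild-type library of batch 2 was far above the other 3, all of which still lay above batch 1 (2.74 ± 0.47 log2, edgeR adjusted p = 0.0009). Its neighbour Cxcl10 (ENSMUSG00000034855) fell by 0.97 log2 (edgeR adjusted p = 0.035), from 131, 125 and 135 and 144, 151 and 148 CPM in wild-type and knockout cells of batch 1 to 22.6 and 120.0 in wild-type and 79.7 and 60.9 CPM in knockout cells of batches 2 and 3. In wild-type cells the batch 3 library was just below batch 1, and the call was lost without any 1 of 8 libraries, all but the wild-type ones of batches 2 and 3 (edgeR adjusted p up to 0.087). Ccl5, another T cell attractant, stood at 100.5, 99.8 and 98.8 CPM in wild-type cells of batch 1, 479 in batch 2 and 364 in batch 3, and at 85.7, 71 and 76.1, 279 and 234 CPM in knockout cells. The groups did not overlap in either line, with a rise of 1.90 ± 0.14 log2 and a response larger by 1.27 ± 0.22 log2 (edgeR adjusted p = 5.4e-06 and 0.00035). Ccl2, the monocyte attractant, overlapped between batch sets under IFNγ (−0.06 ± 0.20 log2, edgeR adjusted p = 0.83) after a lower vehicle level (−1.72 ± 0.22 log2), so that its response was larger by 1.66 ± 0.30 log2 (edgeR adjusted p = 0.00049).

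Inflammatory mediators were raised, 17 of 28 being higher and 1 lower (median 1.01 log2, against −0.02 log2 under vehicle). Tnf, the archetypal inflammatory cytokine, stood at 215, 209 and 202 CPM in wild-type cells of batch 1, 544 in batch 2 and 1226 in batch 3. In knockout cells it stood at 198, 179 and 198, 1195 and 1542 CPM. Batch 3 was the highest in both lines, and the rise of 2.47 ± 0.23 log2 (5.54-fold, edgeR adjusted p = 2.2e-05) had no counterpart that passed under vehicle (−0.01 ± 0.24 log2, edgeR adjusted p = 0.98). Its response was larger by 2.48 ± 0.34 log2 (edgeR adjusted p = 4e-05). Nos2, the inducible nitric oxide synthase, rose too, from 1465, 1248 and 1217 CPM in wild-type and 343, 323 and 429 CPM in knockout cells of batch 1 to 8212, 8195, 2919 and 8238 CPM (3.32 ± 0.32 log2, edgeR adjusted p = 2.8e-05). For Nos2 the vehicle difference was as large (3.67 ± 0.41 log2, edgeR adjusted p = 7.4e-06), with vehicle levels of 72 and 208 CPM in wild-type cells of batches 2 and 3 against 5.95, 5.75 and 4.83 CPM in batch 1. The response difference of Nos2, fitted over both lines together, did not pass (−0.35 ± 0.54 log2, edgeR adjusted p = 0.68). The lines moved in opposite directions. In wild-type cells IFNγ over vehicle was 7.89 log2 in batch 1, 6.83 in batch 2 and 5.30 in batch 3. In knockout cells it was 6.92, 7.47 and 8.97 log2 in the same order.

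Ptgs2, the inducible cyclooxygenase, rose by 2.60 ± 0.26 log2 under IFNγ and 1.28 ± 0.23 log2 under vehicle (edgeR adjusted p = 3.3e-05 and 0.00047). Cd274, the checkpoint ligand PD-L1, stood at 995, 951 and 889.7 and 310.4, 300.1 and 332 CPM in wild-type and knockout cells of batch 1, at 2444 and 989.7 in batch 2 and at 4303 and 1967 in batch 3. Batch 3 exceeded batch 2 in both lines, and the rise was 2.04 ± 0.22 log2 (edgeR adjusted p = 4.9e-05). Il6 was not called (1.04 ± 0.55 log2, edgeR adjusted p = 0.15), with 0.227 CPM in the wild-type library of batch 2 and 9.83 CPM in the knockout one. Il1b was called at 2.67 ± 0.71 log2 (edgeR adjusted p = 0.011), yet its wild-type library of batch 2 (5.45 CPM) lay inside the batch 1 range of 3.71 to 5.56 CPM, and 20.8 CPM in the knockout library of batch 3 was the highest level. Among Toll-like receptor and NF-kB genes 9 were higher and 7 lower of 30, beside 20.5% and 20% of all genes, and 6 and 14 on plain totals. The lipoprotein receptor Tlr2 fell by 2.35 log2 and the kinase-like adaptor Irak2 rose by 1.10 ± 0.13 log2 (edgeR adjusted p = 0.00021 and 6.6e-05).

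Immediate early and feedback genes, whose short-lived transcripts follow recent signalling, were raised in 16 of 24 and lowered in 2 (median 1.22 log2). Under vehicle 8 were higher and 1 lower in batches 2 and 3 (median 0.42 log2). The response was shifted upward for 10 and downward for 1. Zfp36 encodes tristetraprolin, which destroys cytokine transcripts. It stood at 153, 154 and 164 CPM in wild-type cells of batch 1, 870.4 in batch 2 and 1430 in batch 3, and at 123, 112 and 116, 593 and 579 CPM in knockout cells. The separation was wide in both lines (2.61 ± 0.17 log2, edgeR adjusted p = 4.4e-06), while vehicle levels did not pass the test (−0.25 ± 0.16 log2), and the response was larger by 2.85 ± 0.23 log2 (edgeR adjusted p = 1.9e-07). Klf2, a factor that quiets myeloid cells, moved the opposite way, from 2.84, 3.92 and 3.48 and 13.9, 15.2 and 15.2 CPM in wild-type and knockout cells of batch 1 to 0.909, 1.23, 4.02 and 5.01 CPM (−1.69 ± 0.21 log2, edgeR adjusted p = 0.00012). Under vehicle Klf2 was higher in batches 2 and 3 (0.81 ± 0.25 log2, edgeR adjusted p = 0.021).

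**Figure D3:**
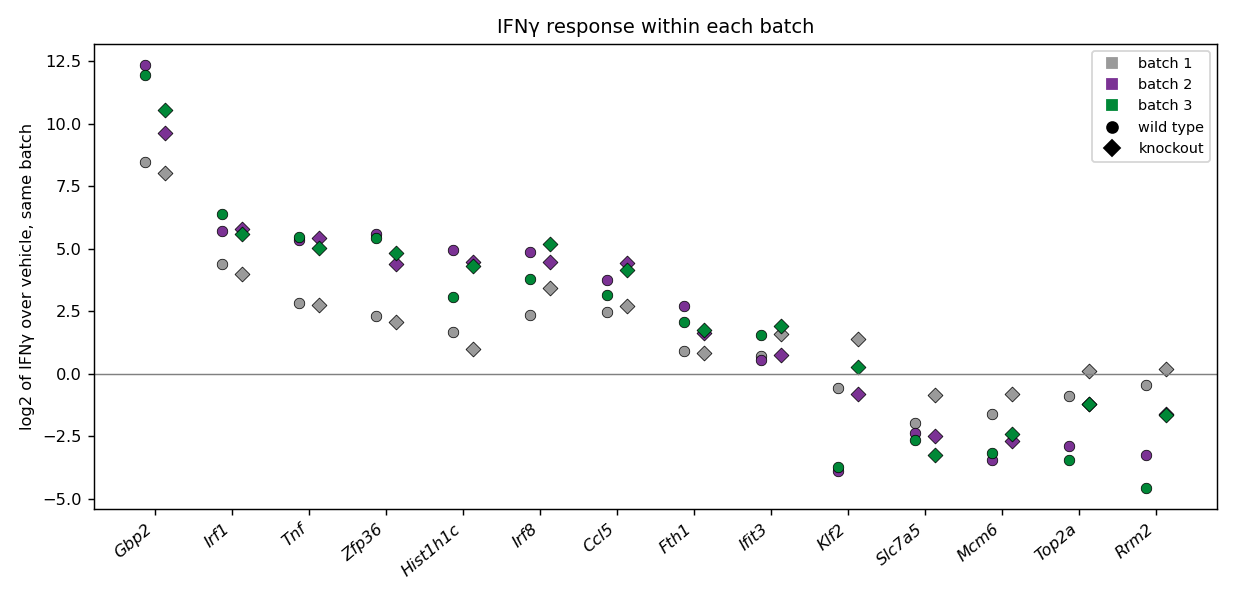
Log2 of the IFNγ level over the vehicle level of the same batch for 14 genes, circles for wild type and diamonds for knockout, coloured by batch; batch 1 points are ratios of means of 3 libraries and the others of 1 library each. For Gbp2, Irf1, Tnf and Zfp36 batches 2 and 3 lay above batch 1 in both lines, and for Mcm6, Top2a, Rrm2 and Slc7a5 below it.

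MHC class II genes, which present peptides to CD4 T cells, were higher in 10 of 13 and lower in none (median 1.61 log2). The class was also higher under vehicle, in 7 of 13 (median 1.12 log2), and for none did the response difference pass the edgeR test. Cd74, the invariant chain, stood at 1424, 1519 and 1435 CPM in wild-type cells of batch 1, 9044 in batch 2 and 3691 in batch 3, and at 423, 385 and 407, 986 and 700.2 CPM in knockout cells. Batch 2 was the highest in both lines, and the rise over batch 1 was 1.61 ± 0.27 log2 (edgeR adjusted p = 0.00076). Knockout libraries held less Cd74 than wild-type ones of the same batch under IFNγ, a comparison of lines that was not tested. H2-DMa, which loads peptides, rose by 2.11 ± 0.34 log2 and the class II beta chain H2-Ab1 by 2.08 ± 0.37 log2 (edgeR adjusted p = 0.00061 and 0.0011). The vehicle fit took both lines together. Vehicle levels of Cd74 were 146, 122 and 138 CPM in wild-type cells of batch 1 and 432 and 458 CPM in batches 2 and 3. In knockout cells they were 146, 145 and 136, 181 and 124 CPM. H2-Ab1 reached 2.69 and 3.13 CPM in wild-type vehicle libraries of batches 2 and 3, against at most 0.0815 CPM in knockout ones. Of class I and immunoproteasome genes 7 of 23 were higher and 2 lower, beside 20.5% and 20% of all genes (median 0.18 log2, and −0.21 on plain totals). The class I chain H2-D1 rose by 1.31 ± 0.17 log2, its partner B2m by 1.08 ± 0.15 log2, and the trimming peptidase Erap1 fell by 0.62 log2 (edgeR adjusted p = 0.00015, 0.00025 and 0.035). The Erap1 call was lost without any 1 of the knockout libraries of batches 1 and 3 (edgeR adjusted p up to 0.068). Reads of near-identical class I or GBP copies may have been assigned either way, since the counting tool is not given in the sources used here.

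Most proliferation genes fell. Of 30 S phase genes 27 were lower in batches 2 and 3 and none higher (median −1.67 log2), and of 30 mitosis genes 28 were lower and 1 higher (median −1.83 log2). Under vehicle 25 and 14 were lower (medians −0.70 and −0.64 log2), and the response was shifted downward for 20 and 20. Mcm6, a subunit of the replicative helicase, stood at 194, 207 and 206 CPM in wild-type cells of batch 1, 27 in batch 2 and 27.1 in batch 3, and at 352, 361 and 355, 60.1 and 77.1 CPM in knockout cells. The batches 2 and 3 of a line lay near each other and far below batch 1 (−2.63 ± 0.15 log2, 6.20-fold lower, edgeR adjusted p = 4.4e-06). Under vehicle Mcm6 was lower by 0.90 log2 (edgeR adjusted p = 7e-05), and its response was shifted by −1.73 ± 0.18 log2 (edgeR adjusted p = 2.2e-06). Its partner Mcm5 fell by 2.31 log2 and cyclin E2, Ccne2, by 3.58 log2 (edgeR adjusted p = 4.4e-06 and 5.3e-05). Without the knockout library of batch 2 the counts of lower genes were again 27 and 28.

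Top2a, the topoisomerase that untangles chromosomes, stood at 291, 296 and 313 CPM in wild-type cells of batch 1 and at 51.7 and 29.6 in batches 2 and 3. In knockout cells it stood at 534, 574 and 576, 184 and 177 CPM, and the fall was 2.23 ± 0.26 log2 (edgeR adjusted p = 8.5e-05). In knockout cells of batch 1 Top2a was near its vehicle level of 503, 532 and 536 CPM, but it stood well below vehicle (427 and 409 CPM) in batches 2 and 3. The spindle protein Prc1 fell by 1.42 log2 (edgeR adjusted p = 8.3e-05). The exception was Cenpa, the centromeric histone variant, at 587 and 378 CPM in the wild-type and knockout libraries of batch 2 against 21.7, 22.5 and 26.5 and 74, 68.2 and 65.2 CPM in batch 1. In batch 3 it stood at 63.2 and 64.1 CPM, so that its call (2.80 ± 0.64 log2, edgeR adjusted p = 0.0047) rested mostly on batch 2. Replication-dependent histone genes, whose transcripts normally lack a poly(A) tail, were higher in 8 of 9 and lower in none (median 2.18 log2, against −0.46 under vehicle). Hist1h1c, a linker histone, went from 181, 171 and 171 and 124, 124 and 139 CPM in wild-type and knockout cells of batch 1 to 1449, 589, 1401 and 764 CPM. It rose in both lines, most in batch 2 (2.81 ± 0.25 log2, edgeR adjusted p = 1.9e-05). The libraries were selected for poly(A), and the part of tailed histone transcripts in these levels was not tested.

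Metabolic and stress genes moved in several directions. Hypoxia and glycolysis genes were higher in 15 of 29 and lower in 1 (median 0.63 log2), with 15 of 30 also higher under vehicle (median 0.50 log2). Ndrg1, a hypoxia-induced gene, stood at 8.49, 9.64 and 8.77 CPM in wild-type cells of batch 1 and 68.1 and 31.2 in batches 2 and 3, and at 10.1, 8.72 and 15.5, 79.7 and 76.3 CPM in knockout cells. It rose by 2.62 ± 0.22 log2 under IFNγ and 2.38 ± 0.34 log2 under vehicle (edgeR adjusted p = 1.4e-05 and 7.7e-05), and the response difference did not pass (0.24 ± 0.48 log2). The angiogenic factor Vegfa rose by 1.37 ± 0.15 log2, and the kinase Pdk1, which diverts pyruvate from mitochondria, fell by 0.66 log2 (edgeR adjusted p = 5.2e-05 and 0.043). The Pdk1 call was lost without any 1 of 9 libraries, all but the knockout library of batch 3 (edgeR adjusted p up to 0.13). Fth1, the ferritin heavy chain that stores iron, was among the most abundant transcripts, at 7153, 6952 and 6986 CPM in wild-type cells of batch 1, 37170 in batch 2 and 29448 in batch 3, and at 5683, 5426 and 5726, 15953 and 15024 CPM in knockout cells. It rose by 1.87 ± 0.18 log2 with a response larger by 1.19 ± 0.20 log2 (edgeR adjusted p = 2.9e-05 and 0.00029). The heme-degrading enzyme Hmox1 rose by 1.22 ± 0.20 log2 under IFNγ and 1.11 ± 0.16 log2 under vehicle (edgeR adjusted p = 0.0007 and 6.6e-05).

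The amino acid transporter Slc7a5, some heat shock proteins and a few sterol synthesis genes fell. Slc7a5, which takes up large neutral amino acids and feeds mTOR, stood at 133, 137 and 133 CPM in wild-type cells of batch 1 and 40.4 and 30.5 in batches 2 and 3, and at 242, 268 and 245, 43.4 and 41.8 CPM in knockout cells. All 4 libraries lay near each other, far below batch 1 (−2.24 ± 0.16 log2, 4.71-fold lower, edgeR adjusted p = 6.2e-06). Among heat shock proteins 2 were higher and 6 lower of 16, beside 20.5% and 20% of all genes (median −0.28 log2). Under vehicle 1 was higher and 8 were lower (median −0.31 log2), and the response was shifted upward for 1 and downward for 1. The mitochondrial chaperonin Hspd1 fell by 1.52 log2 under IFNγ (edgeR adjusted p = 0.00012). In cholesterol synthesis 2 were higher and 5 lower of 23 under IFNγ, the latter a share near the 20% of all genes that were lower. On plain totals 1 was higher and 14 were lower. None was higher and 13 were lower under vehicle, where the median was −0.56 log2. The sterol demethylase Cyp51 was lower by 1.25 log2 under IFNγ and 1.33 log2 under vehicle (edgeR adjusted p = 0.00016 and 9.5e-05).

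Genes that mark microglial states moved in both directions. Homeostatic markers were higher in 2 and lower in 7 of 18 (median −0.51 log2), beside 20.5% and 20% of all genes. On plain totals 0 were higher and 10 lower, and under vehicle 1 was higher and 3 were lower. With each line fitted alone under IFNγ, 3 were higher and 3 lower of 18 in wild-type cells. In knockout cells 1 was higher and 5 were lower of 17. The purinergic receptor P2ry12, which guides resting processes to injury, was at 2.84, 2.81 and 2.05 and 1.99, 2.35 and 2.29 CPM in wild-type and knockout cells of batch 1 and at 1.29, 1.41, 0.706 and 0.979 CPM in batches 2 and 3. It was low in every IFNγ library and lower in batches 2 and 3 (−1.15 ± 0.30 log2, edgeR adjusted p = 0.01), as was its relative P2ry13 (−2.34 ± 0.60 log2, edgeR adjusted p = 0.0089). The mannose receptor Mrc1 fell by 1.32 log2 (edgeR adjusted p = 0.0094). Markers of disease-associated microglia were higher in 16 of 24 and lower in none (median 0.95 log2). Spp1, the secreted matrix protein osteopontin, stood at 7038, 6766 and 6370 CPM in wild-type cells of batch 1, 25444 in batch 2 and 22698 in batch 3, and at 2156, 2061 and 2277, 8995 and 11525 CPM in knockout cells. It rose by 2.05 ± 0.16 log2, more than under vehicle (0.80 ± 0.12 log2; response difference 1.24 ± 0.18 log2, edgeR adjusted p = 8.4e-06, 0.00012 and 5.9e-05). The integrin Itgax rose by 2.23 ± 0.32 log2 (edgeR adjusted p = 0.00028).

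Adhesion and migration genes bear on the series' subject. Of 32 adhesion and matrix remodelling genes 16 were higher and 2 lower (median 1.02 log2, against 0.16 under vehicle). Plaur, the urokinase receptor that focuses proteolysis at the cell edge, stood at 746, 744 and 693 CPM in wild-type cells of batch 1, 3418 in batch 2 and 2225 in batch 3, and at 391, 331 and 362, 1304 and 1501 CPM in knockout cells. It rose by 1.96 ± 0.15 log2 with a response larger by 1.69 ± 0.19 log2 (edgeR adjusted p = 8.7e-06 and 6.1e-06). The collagenase Mmp13 was not called (2.14 ± 0.88 log2, edgeR adjusted p = 0.07): the knockout library of batch 3 held 2766 CPM and that of batch 2 157 CPM. Chemoattractant receptors were higher in 4 and lower in 3 of 23, shares below the 20.5% and 20% of all genes (2 and 5 on plain totals). Among them the platelet-activating factor receptor Ptafr rose by 1.75 ± 0.14 log2 (edgeR adjusted p = 1.1e-05). Of RGS and G alpha genes 8 were higher and 4 lower of 19, the latter near the 20% of all genes, and 5 and 9 on plain totals. Rgs1 rose by 1.55 ± 0.25 log2 and Rgs18 fell by 2.38 log2 (edgeR adjusted p = 0.00053 and 0.0039), both of them GTPase accelerators like Rgs10.

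**Figure D4:**
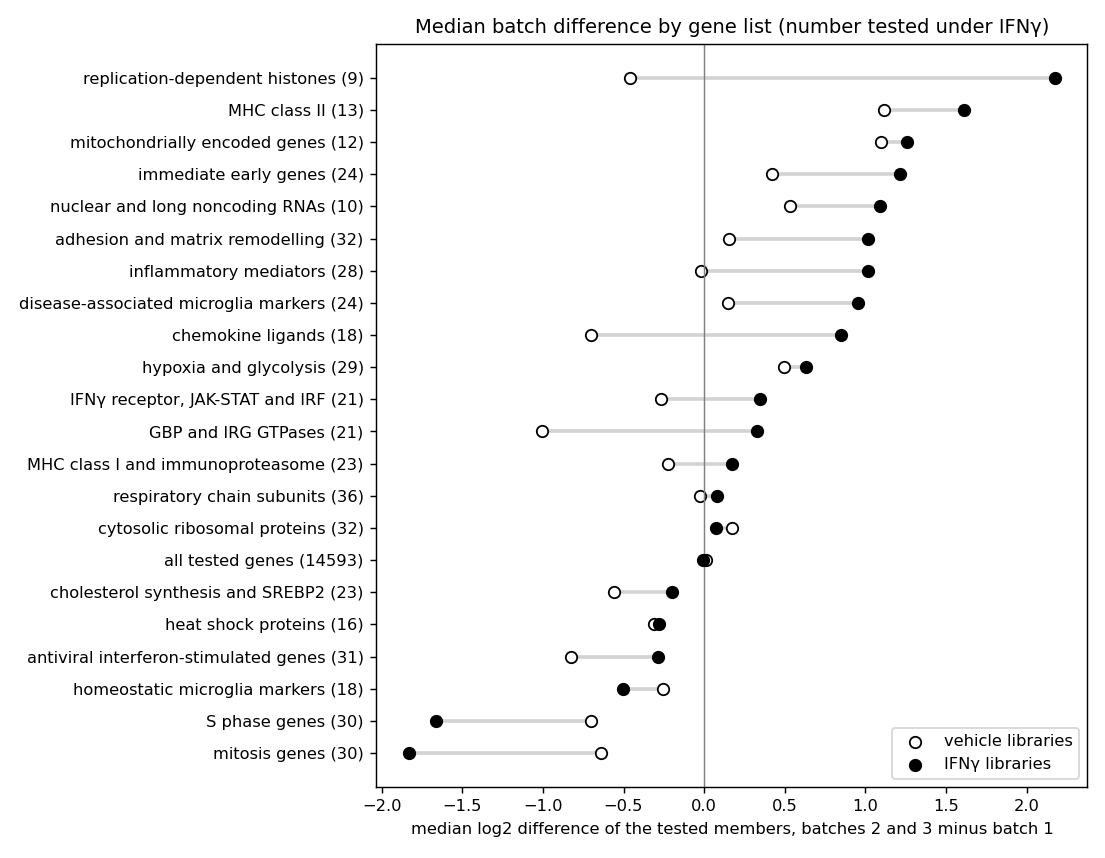
Median log2 difference between batches 2 and 3 and batch 1 over the tested members of 21 gene lists and over all genes, filled for IFNγ libraries and open for vehicle libraries. GTPase, chemokine and histone lists lay below 0 under vehicle and above it under IFNγ, although on plain totals the GTPase median under IFNγ was −0.07 log2. MHC class II and mitochondrial lists lay above 0 under both, and S phase and mitosis lists lay below 0 under both and further under IFNγ.

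Nuclear and mitochondrial transcripts are often used as signs of RNA quality. Malat1 and Neat1 were higher in batches 2 and 3, while the mitochondrial share of reads moved in opposite directions in the lines. Malat1, a nuclear noncoding RNA, stood at 369, 359 and 337 CPM in wild-type cells of batch 1, 2321 in batch 2 and 1240 in batch 3, and at 53.9, 54.6 and 59.8, 1555 and 1132 CPM in knockout cells. The rise of 3.54 ± 0.40 log2 (11.7-fold, edgeR adjusted p = 7e-05) did not pass under vehicle (0.66 ± 0.31 log2), where all libraries held 48.8 to 151 CPM. Neat1, the scaffold of paraspeckles, rose by 3.50 ± 0.37 log2 under IFNγ and 1.49 ± 0.29 log2 under vehicle (edgeR adjusted p = 4.6e-05 and 0.001). The mitochondrial gene mt-Co1 stood at 2725, 3258 and 2932 and 755, 826 and 823 CPM in wild-type and knockout cells of batch 1 and at 5820, 4973, 8921 and 4693 CPM in batches 2 and 3. It was higher under both treatments (2.06 ± 0.39 log2 under IFNγ, 2.05 ± 0.36 log2 under vehicle, edgeR adjusted p = 0.0016 and 0.00042). Mitochondrially encoded genes held 0.561%, 0.671% and 0.624% of reads in wild-type cells of batch 1, and less, 0.481% and 0.514%, in batches 2 and 3. In knockout cells they held 0.174%, 0.190% and 0.193% in batch 1, 1.20% in batch 2 and 0.583% in batch 3, and the difference over both lines did not pass (exact permutation within lines, adjusted p = 0.144). The part of these measures in the gene differences above was not tested.

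Batches 2 and 3 gave different counts for some groups when each was set against batch 1, but the 2 were not tested against each other. Set alone against batch 1, batch 2 had 25.1% of 16017 genes higher and 26.9% lower, and batch 3 had 20.8% of 15210 higher and 21.4% lower. Batch 2 had 16 of 32 cytosolic ribosomal protein genes higher and none lower, and batch 3 had 1 higher and 12 lower (medians 0.39 and −0.28 log2). These calls are on the TMM scale. As a share of reads the list held 1.59% to 1.75% in wild-type cells of batch 1, 1.69% in batch 2 and 1.29% in batch 3. In knockout cells it held 2.59% to 2.85%, 2.92% and 1.55%. On plain totals, with batches 2 and 3 together, 1 was higher and 7 were lower. Antiviral genes were lower in 14 in batch 2 and 6 in batch 3 of 31, and higher in 6 and 7, so that batch 3 stood near the share over all genes. GTPases had 7 higher and 5 lower in batch 2 but 13 higher and none lower in batch 3. Toll-like receptor and NF-kB genes had 7 higher and 16 lower of 30 in batch 2 and 9 and 9 in batch 3. Proliferation genes were lower in both, 27 and 27 of 30 for S phase and 25 and 29 of 30 for mitosis. Lcn2, an iron-scavenging acute phase protein, illustrated the split, at 1.89 and 0 CPM in wild-type and knockout cells of batch 2 and 16.3 and 3.74 CPM in batch 3, below and above the batch 1 levels of 10.8, 11.5 and 11.9 and 1.81, 1.74 and 1.68 CPM. Batch 2 differed from batch 1 by −3.09 log2 and batch 3 by 0.77 log2, and the joint difference was −0.13 ± 0.70 log2 (edgeR adjusted p = 0.9).

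The lines differed in the size of the batch difference for 1426 of 14593 genes (9.77%), 743 with a larger value in knockout cells (5.09%) and 683 with a smaller one (4.68%). Of the calls 52.1% were larger (on plain totals 87.3%). The count of 1426 was the least stable: it was 354 to 409 without any 1 of the 6 batch 1 libraries, 3358 and 4306 without the knockout library of batch 2 or 3, 3173 without the wild-type library of batch 3 and 1745 without that of batch 2. Of 30 mitosis genes 12 had a higher value in knockout cells and none a lower one, and of 30 S phase genes 10 and 1. Rrm2, which makes deoxynucleotides, stood at 97.9, 111 and 108 CPM in wild-type cells of batch 1 and at 5.45 and 1.66 in batches 2 and 3, and at 104, 101 and 97.1, 17.6 and 19.8 CPM in knockout cells. Both lines started alike and wild-type cells ended lower, a difference of 2.49 ± 0.46 log2 (edgeR adjusted p = 0.013). The replication factor Pclaf differed likewise by 2.31 ± 0.35 log2, and the proliferation marker Mki67 by 2.16 ± 0.54 log2 (edgeR adjusted p = 0.0069 and 0.035). Mki67 stood at 52.4 and 16.7 CPM in wild-type cells of batches 2 and 3 against 168, 177 and 173 CPM in batch 1, and at 284 and 173 CPM in knockout cells against 235, 269.6 and 264 CPM.

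MHC class II genes showed the opposite sign, with 5 of 13 smaller in knockout cells and none larger. Ciita, the master regulator of the class, stood at 37.5, 36.1 and 36.2 CPM in wild-type cells of batch 1, 117 in batch 2 and 77 in batch 3, and at 11.7, 12.6 and 10.1, 11 and 16.3 CPM in knockout cells. Knockout levels overlapped between batches and wild-type levels did not, with a difference between lines of −1.15 ± 0.31 log2 (edgeR adjusted p = 0.044). For H2-Ab1 it was −1.90 ± 0.48 log2 (edgeR adjusted p = 0.036), from 38.4, 40.7 and 41.7 CPM in wild-type cells of batch 1 to 448 and 174 CPM, and from 17.8, 14.1 and 12.9 CPM in knockout cells to 36.5 and 25.5 CPM. The fractalkine receptor Cx3cr1, a homeostatic marker, was at 1.10, 0.751 and 0.386, 1.14 and 1.72 CPM in wild-type and at 4.64, 4.49 and 4.01, 0.597 and 0.863 CPM in knockout cells. It was lower in batches 2 and 3 in knockout cells and not in wild-type cells, a difference between lines of −3.52 ± 0.65 log2 (edgeR adjusted p = 0.014) at levels near 1 CPM. Malat1 and mt-Co1 differed between lines too, by 2.26 ± 0.35 and 2.23 ± 0.35 log2 (edgeR adjusted p = 0.0076 and 0.0079).

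**Figure D5:**
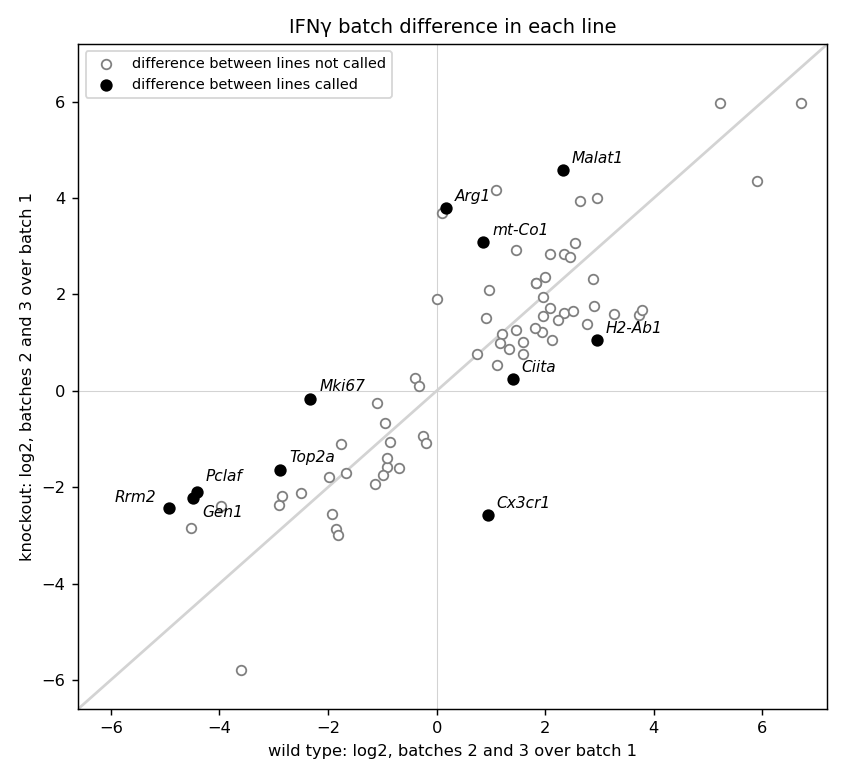
Log2 difference between batches 2 and 3 and batch 1 under IFNγ in wild-type cells (x axis) and knockout cells (y axis), each fitted alone, for the genes named in the text other than Il1rl1, which was at 0 in wild-type cells; the grey line marks equal values. The 11 filled points are genes whose difference between lines passed the edgeR test: Rrm2, Pclaf, Gen1, Top2a and Mki67 lay above the line and Cx3cr1, Ciita and H2-Ab1 below it.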

How the data were processed

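Poly(A)-selected RNA of BV-2 cells was sequenced in 20 libraries, 10 of them treated with IFNγ. The authors deposited raw counts per Ensembl gene (56941 IDs, 28314 without a read), and per the submitters' processing notes FastQC, Trim Galore, STAR, DESeq2 and the build GRCm39 were used. How reads were assigned to genes (tool, strand, annotation) is not given in the sources used here. Overlapping genes and paralogs may therefore share reads. Symbols for 51948 IDs (91.2%) came from GENCODE vM21, and upstream sequences from RefSeq (GRCm38.p6). All 20 columns matched a library by name.

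Counts were scaled by TMM over all 20 libraries and filtered with filterByExpr over line, treatment and batch set. edgeR 4.0.16 (R 4.3.3) quasi-likelihood models with robust dispersion gave the IFNγ batch difference (10 libraries, line and batch set, 7 residual degrees of freedom), the difference of IFNγ responses and the vehicle difference (20 libraries, 14) and the difference between lines (10 libraries, 6). A gene was called at a Benjamini-Hochberg adjusted p under 0.05, and words of direction ("rose", "fell", "higher", "lower") are kept for calls. Log2 values are ± SE. Library measures were compared by a two-sided exact permutation test within lines (100 arrangements, smallest p 0.01), adjusted over 12 measures. Each IFNγ library held 19570654 to 29157740 counts. Levels well below 1 CPM, such as those of Gpr84 and Il1rl1 in batches 2 and 3, rest on few reads. Counting error was not compared with the spread between batches gene by gene.

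Alternatives were RLE size factors, plain totals, no filter beyond 1 read, DESeq2 1.42.0, limma-voom (limma 3.58.1), 3 batch levels, all 20 libraries, each batch or line alone, a replicate block and each library left out. No libraries were copies: between IFNγ libraries of a line, chi-square per degree of freedom reached 3.69 to 7.47 inside batch 1 and 123 to 397 from batch to batch. Beyond the batch, replicate numbers pair nothing that the labels state, and deviations of same-number batch 1 libraries correlated at −0.103 to 0.024.

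Members and gene lists were chosen with earlier results of these data known. The naming rule took a fixed panel, the largest called changes without overlap and with at least 5 CPM, the largest called response differences among induced and repressed genes, and up to 2 called members each way per list. It gave 157 genes, of which the text names 77 at most, a choice made after values were seen. Some genes of the rule are not reported here.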

Additional observations from a re-analysis of the deposited data

Results flagged for a closer look

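Of 154 sets of 4 or 6 IFNγ libraries, 8 held a library far from the others by Dixon's criterion, where chance gives about 1 in 20. In batches 2 and 3 the wild-type library of batch 2 was the highest for Cxcl9 (784 CPM, the others at most 153), Crybg2 (444 CPM, the others at most 102) and H2-DMa (449 CPM, the others at most 127). The knockout library of batch 2 was the lowest for Nos2 (2919 CPM, the others at least 8195). The wild-type library of batch 3 was the lowest for the lectin Clec9a (18.5 CPM). The knockout library of batch 3 was the highest for Tnfsf10 (6.56 CPM) and Rgs18 (4.49 CPM). In batch 1 knockout replicate 3 was the highest for Ndrg1 (15.5 CPM, the others at most 10.1).

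For 11 named genes the batch difference under IFNγ differed between the lines (edgeR interaction test, knockout minus wild type). The value was 2.26 log2 for Malat1, 2.23 for mt-Co1, 2.49 for Rrm2, 2.31 for Pclaf, 2.26 for the resolvase Gen1, 2.16 for Mki67 and 1.25 for Top2a. It was 3.62 log2 for the arginase Arg1, whose levels were 2.04 and 3.80 CPM in wild-type and 2.28 and 6.97 CPM in knockout cells of batches 2 and 3. In batch 1 Arg1 stood at 2.59, 2.55 and 2.70 CPM in wild-type and at only 0.419, 0.142 and 0.431 CPM in knockout cells. The difference between lines was −1.15 log2 for Ciita, −1.90 for H2-Ab1 and −3.52 for Cx3cr1. Of these, Ciita was closest to the threshold (edgeR adjusted p = 0.044).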

How the results depend on the processing

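The count of genes differing between batch sets under IFNγ was within 1.5 times the reported 5914 in every alternative. The response difference (3413 genes) was 5773 with batch 2 alone and 5980 on plain totals, and 2685 to 4874 with 1 library left out. The difference between lines (1426 genes) was 2874 by DESeq2, 2284 without a filter and 354 to 4306 with 1 library left out, and the vehicle difference (3798) was 1967 to 4847. With the replicate number as a block, 5557 genes differed between batch sets and 3095 in the response, so the pairing of numbers moved no count by over 1.5 times. Of 71 named genes called under IFNγ, 54 were called in all of up to 22 alternatives. Lcn2 was not called in the main fit (−0.13 log2, edgeR adjusted p = 0.9) but moved to 0.77 log2 with batch 3 alone (edgeR adjusted p = 0.0053). No other named gene had a call with a sign opposite to the main fit, and the cause was not tested. Knockout libraries alone, with 3 against 2, lost the calls of Gbp2, Oas2, Mrc1 and Rgs18 among others. Arg1 (2.05 ± 0.72 log2) was lost without any 1 knockout library (edgeR adjusted p up to 0.11). Batches 2 and 3 give 1 library per line each, which limits any statement on a single batch, and levels near 1 CPM, such as those of Cx3cr1, rest on few reads.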

Other observations

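Gene groups not described above moved little or in part. Phagocytosis, Fc receptor and complement genes were higher in 9 and lower in 2 of 25 in batches 2 and 3 under IFNγ. Respiratory chain subunits were higher in 9 and lower in 1 of 36, p53 targets in 8 and 5 of 19, antioxidant genes in 7 and 2 of 25, stress and unfolded protein response genes in 5 and 9 of 24, and genes of lipid handling in 5 and 4 of 19, beside 20.5% higher and 20% lower of all genes. On plain totals several of these counts turned round: 4 and 12 for the respiratory chain, 4 and 8 for p53 targets, 5 and 7 for antioxidant genes and 3 and 8 for lipid handling, while stress genes were at 3 and 13 and phagocytosis genes at 7 and 3.

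Some genes known from other cell types depended on batch within these cultures. Clec9a, a lectin of cross-presenting dendritic cells, had no read in any of the 10 vehicle libraries and stood under IFNγ at 10.6, 12.3 and 12.5 CPM in wild-type cells of batch 1, 65 in batch 2 and 18.5 in batch 3, and at 23.2, 23.5 and 26.7, 62 and 58.3 CPM in knockout cells. It rose by 1.56 ± 0.27 log2 in batches 2 and 3 (edgeR adjusted p = 0.00089), while 7 of 10 dendritic cell markers stayed under 1 CPM in every IFNγ library. The adhesion molecule Pecam1, known from endothelium and leukocytes, was at 2.12, 1.67 and 1.82 and 1.85, 1.64 and 2.46 CPM in wild-type and knockout cells of batch 1 and at 15.9, 5.58, 1.68 and 10.8 CPM in batches 2 and 3 (2.10 ± 0.46 log2, edgeR adjusted p = 0.0038). The knockout library of batch 2 lay within the batch 1 range, and the other 3 above it.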
